A study of Mus musculus with 6 samples.

Results

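The genes described here are 10 regulators of the epidermis: the transcription factors Trp63, Grhl1, Grhl2, Grhl3, Klf4, Klf5, Ovol1 and Bcl11b, the tripartite-motif protein gene Trim29 and the protein kinase gene Ripk4. They were found by the gene name printed beside each probe on a mouse expression array. Of the 10 genes, 9 had a probe, with 16 probes among the 41174 on the array, and Grhl3 was not analysed here. The 9 genes were among 19512 named genes. Grhl2 was the name in the files for all 3 of its probes. One further probe, filed under the older clone name 9130430L19Rik, carried a Bcl11b transcript and is given separately.

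The samples were C57BL/6 mouse autopods, the future hands and feet, at stage E14.5 of embryonic development. The study took 2 normal control embryos and 2 mutant littermates called Tgfbr2Prx1KO. By convention that name stands for a deletion of Tgfbr2, the TGF-beta type II receptor gene, by a Cre recombinase under the Prx1 promoter, which is active in limb mesenchyme and not in the ectoderm that forms the epidermis. Cells were laser-captured from the interzone, where a joint will form, from the adjoining growth plate cartilage and from the interdigital tissue, and each of the 6 combinations of tissue and genotype was read on 1 array. The labels do not say whether an array pooled both embryos. The Cre allele of the controls is not stated, and all 6 groups are otherwise untreated. The descriptions of 5 samples name human blood, whereas their titles, organism and tissue labels name mouse limb, and the titles were used. The title of the interdigital mutant sample writes Tbr2Prx1KO, and its genotype label gives Tgfbr2Prx1KO.

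An epidermis is a stratified epithelium that covers the limb. p63, the product of Trp63, keeps its basal layer in being and switches on keratin and adhesion genes. The grainyhead-like factors build the barrier and turn on junction genes such as Cdh1, KLF4 and KLF5 act in differentiating and proliferating keratinocytes respectively, and OVOL1 restrains proliferation as cells leave the basal layer. BCL11B, also known as CTIP2, is a zinc-finger repressor that acts in epidermis, T cells and neurons, TRIM29 is abundant in basal keratinocytes, and RIPK4 phosphorylates targets needed for keratinocyte differentiation. None of the 3 captured tissues is an epithelium.

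Promoter windows from RefSeq, on the mouse assembly GRCm38.p6, matched 4 of the 10 genes. The 250 bases upstream of a transcription start are shown for 3 of these. Grhl1 and Bcl11b are 2 of the genes that were higher in the mutant in every tissue, and Klf4 reached 2-fold in 1 tissue. Capitals mark 2 short motifs on either strand that zinc-finger factors of the KLF and SP family are known to bind, the GC box GGGCGG and the CACCC box. The Grhl1 windows are chr12:24572037-24572286 and chr12:24580469-24580718 on the plus strand. The Bcl11b window is chr12:108003415-108003664 and the Klf4 window chr4:55532476-55532725, both on the minus strand and printed in the direction of the gene.
Grhl1 start 1: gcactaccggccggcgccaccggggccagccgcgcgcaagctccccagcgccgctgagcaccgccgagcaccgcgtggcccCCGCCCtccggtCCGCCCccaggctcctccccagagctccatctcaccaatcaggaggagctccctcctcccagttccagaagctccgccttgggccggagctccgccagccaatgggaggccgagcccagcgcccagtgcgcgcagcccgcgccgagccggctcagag
Grhl1 start 2: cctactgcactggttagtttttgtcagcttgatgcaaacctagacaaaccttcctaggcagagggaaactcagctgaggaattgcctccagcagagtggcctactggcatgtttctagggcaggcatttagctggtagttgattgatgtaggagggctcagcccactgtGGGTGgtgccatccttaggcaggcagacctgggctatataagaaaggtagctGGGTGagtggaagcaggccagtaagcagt
Bcl11b: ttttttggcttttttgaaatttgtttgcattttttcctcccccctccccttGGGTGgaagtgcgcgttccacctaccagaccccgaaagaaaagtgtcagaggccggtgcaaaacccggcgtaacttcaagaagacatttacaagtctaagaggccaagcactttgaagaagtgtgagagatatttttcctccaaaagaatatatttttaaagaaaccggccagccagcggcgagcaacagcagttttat
Klf4: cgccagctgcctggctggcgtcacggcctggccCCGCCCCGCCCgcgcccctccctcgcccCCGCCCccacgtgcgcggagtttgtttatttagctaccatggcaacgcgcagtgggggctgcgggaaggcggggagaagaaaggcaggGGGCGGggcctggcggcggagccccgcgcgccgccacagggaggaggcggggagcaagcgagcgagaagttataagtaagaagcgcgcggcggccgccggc

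The Klf4 window had 4 GC boxes, 1 pair of them overlapping, and no CACCC box. The first Grhl1 start had 2 GC boxes and the second start 2 CACCC boxes, whereas the Bcl11b window had 1 CACCC box and no GC box. GC boxes were in 32.7% and CACCC boxes in 52.0% of all 32817 windows of this length. The base composition also differed, with 75.6% G and C at the first and 52.0% at the second Grhl1 start, 44.8% at Bcl11b and 74.0% at Klf4. A grainyhead motif, AACCNGGTT, was in none of these windows and in 0.241% of all windows. The exact letters TATAAA, a form of the TATA box, were also in none of them and in 12.4% of all windows. Other forms of that box were not searched for. A pair of p53-family core letters, CATGNNNNNNCATG, was in none of these windows and in 0.488% of all windows. These matches describe the letters and are not evidence of binding.

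A level below is the log2 signal of a probe relative to the 75th percentile of its array, so that 0 is that percentile and 1 unit is a 2-fold difference in signal. A probe that the scanner software did not mark as well above background has only a bound. It is written as at least N-fold, against the lowest level well above background on that array or the level of the probe, whichever was higher. Where a gene had several probes the brightest one, by its mean over the 6 arrays, stood for the gene. With 1 array per group no difference has a replicate check, no spread between animals can be given and no p-value was computed. Levels are not compared between probes.

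The arrays differed in signal before scaling. In control growth plate the median processed signal stood at 103 units, against 340 to 502 on the other 5 arrays, and 72.3% to 88.3% of spots were well above background. The growth plate and interdigital mutant arrays lay on 1 slide and the other 4 arrays on another, so genotype and slide cannot be told apart in those pairs, whereas both interzone arrays shared a slide. The targeted gene, Tgfbr2, was 1.13-fold lower in mutant interzone, differed less than 2-fold in interdigital tissue and was 12.2-fold higher in mutant growth plate at its brightest probe. Its 2 other probes were also higher in mutant growth plate, by 3.29-fold and at least 2.63-fold. In interzone the brighter of these 2 was 1.93-fold higher in the mutant, and the dimmest was not well above background on either array. In interdigital tissue the brighter differed 1.05-fold and the dimmest was 12.1-fold lower in the mutant. The deleted part is not stated in the sources used here, so the probes may lie outside it and check nothing. In captured tissue, fewer cells of a type and less RNA per cell cannot be told apart.

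At its brightest probe Trp63 was well above background in control interzone, not in control growth plate or interdigital tissue, and on all 3 mutant arrays. This probe, A_52_P17264, read -0.48 in control interzone, -8.80 in control growth plate and -9.47 in control interdigital tissue, of which only the first was well above background. The mutant levels were -0.76 in interzone, 0.78 in growth plate and 0.89 in interdigital tissue. The mutant was thus at least 159-fold higher in growth plate and at least 272-fold higher in interdigital tissue. In interzone it was 1.22-fold lower. The interzone sign turned to higher, at 1.04, when the 3 probes were averaged, with readings not well above background taken as measured. The control and mutant levels therefore overlapped through the interzone arrays alone.

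The other 2 Trp63 probes were dimmer. Probe A_51_P216550 was well above background only in mutant growth plate, at -2.89, and mutant interdigital tissue, at -5.00. It was at least 12.5-fold higher in the mutant in the first tissue and at least 4.61-fold higher in the second. Probe A_52_P338796, which carries a cDNA clone of the gene, was well above background in control interdigital tissue, at -6.35, and on all 3 mutant arrays. It was at least 8.78-fold higher in mutant interzone, at least 8.11-fold in growth plate and 4.20-fold in interdigital tissue. All 3 probes were thus higher in the mutant in growth plate and interdigital tissue, and in interzone the probes disagreed. The files print coordinates without naming a genome build. By these the brightest probe covers chr16:25526842-25527619, a span of 778 bases. The second is at chr16:25553466-25553525 and the third at chr16:25529172-25529231.

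**Figure D1:**
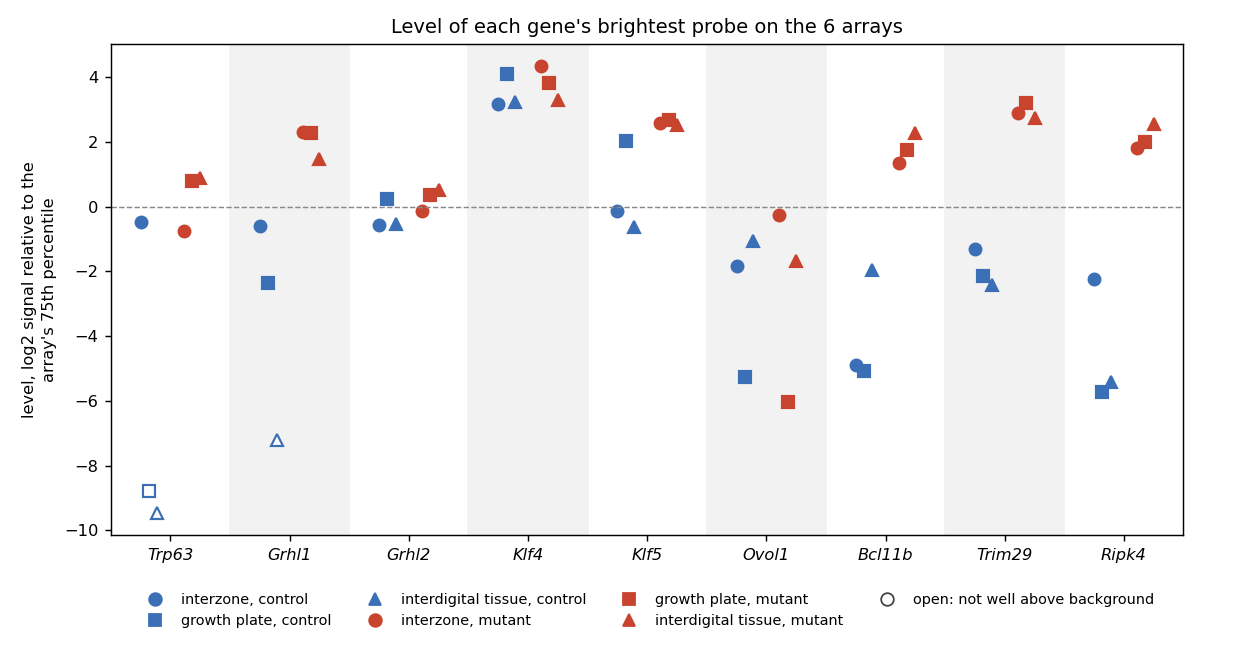
Level of the brightest probe of each gene on the 6 arrays, as the log2 signal relative to the 75th percentile of the array (vertical axis), by gene (horizontal axis). Blue points are control and red points mutant arrays, circles interzone, squares growth plate and triangles interdigital tissue, with open points not well above background. All red points lie above all blue points for 5 of the 9 genes: Grhl1, Klf5, Bcl11b, Trim29 and Ripk4.

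Of the grainyhead-like family, Grhl1 was higher in the mutant in all 3 tissues, and both of its probes gave that result. Its brightest probe read -0.60 in control interzone, -2.35 in control growth plate and -7.20 in control interdigital tissue, the last not well above background. In the mutant it read 2.30, 2.29 and 1.48 in the same order. All mutant arrays lay above all control arrays, and the mutant was 7.45-fold higher in interzone, 24.9-fold in growth plate and at least 410-fold in interdigital tissue. The second probe gave 7.88-fold, 16.7-fold and at least 405-fold. The probes lie side by side, at chr12:22453628-22453687 and chr12:22453716-22453776 in the coordinates of the files, so they are readings of 1 stretch of the transcript rather than 2 independent ones.

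Grhl2 depended on the probe. The brightest probe read -0.57 in control interzone, 0.22 in control growth plate and -0.55 in control interdigital tissue, and -0.14, 0.34 and 0.50 in the mutant. The mutant was 1.34-fold higher in interzone, 1.09-fold in growth plate and 2.06-fold in interdigital tissue, and the growth plate sign turned to lower, with a difference of -0.99, with the deposited values scaled to the array median. The 6 levels spanned little more than 1 unit and the genotypes overlapped.

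The other Grhl2 probes, both well above background on all 6 arrays, differed more. The second read -4.40, -3.94 and -5.09 in control interzone, growth plate and interdigital tissue, and -0.90, -1.45 and -0.34 in the mutant, which was 11.3-fold, 5.6-fold and 26.9-fold higher. The third was 4.25-fold, 9.49-fold and 15.1-fold higher. At these 2 probes every mutant array lay above every control array. The probe that stood for the gene is at chr15:37474056-37474115, the third near it at chr15:37471448-37471507, and the second farther off at chr15:37420358-37420417. Which of the probes reads the coding transcript was not tested.

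**Figure D2:**
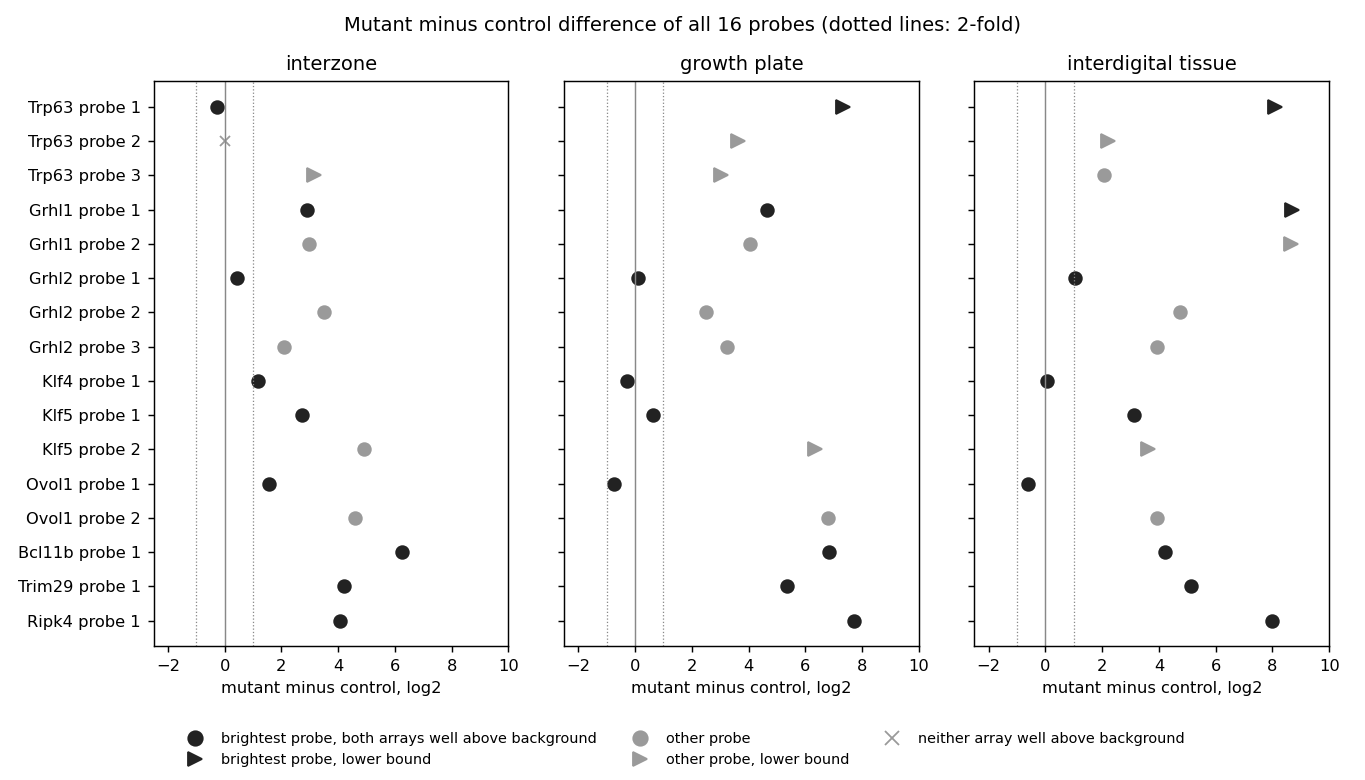
Mutant minus control difference in log2 units (horizontal axis) for each of the 16 probes (vertical axis) in the 3 tissues. Black points are the probes that stood for a gene and grey points the others, triangles are lower bounds, the cross is a probe not well above background on either array, and dotted lines mark 2-fold. In growth plate the black points of Grhl2, Klf5 and Ovol1 lie within 2-fold while all grey points of these genes lie beyond it.

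Among the Krüppel-like factors, Klf4 was at least 2-fold higher in mutant interzone and Klf5 in mutant interzone and interdigital tissue. The only Klf4 probe read 3.17 in control interzone, 4.11 in control growth plate and 3.24 in control interdigital tissue, and 4.33, 3.81 and 3.29 in the mutant. It was 2.23-fold higher in mutant interzone, a call that was lost with normexp background correction, at 0.90 units. It was 1.23-fold lower in growth plate and 1.03-fold higher in interdigital tissue, and the sign of each of these 2 differences turned under another scaling, to 0.37 and -0.06 with quantile normalization. Every array held Klf4 well above background and the genotypes overlapped. The probe is at chr4:55541780-55541839 in the coordinates of the files.

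Klf5 at its brightest probe read -0.14 in control interzone, 2.03 in control growth plate and -0.63 in control interdigital tissue. The mutant levels, 2.58, 2.67 and 2.50, lay within 0.16 units of each other. Every mutant array was above every control array, by at least 0.47 units. Within a tissue the mutant was 6.58-fold higher in interzone, 8.76-fold in interdigital tissue and 1.55-fold in growth plate. The growth plate sign turned to lower, at -0.48, with the deposited values. The second probe, on a cDNA of the gene, was 29.8-fold higher in mutant interzone, at least 80.1-fold higher in growth plate and at least 12.2-fold higher in interdigital tissue. The 2 probes thus disagreed in growth plate, where control Klf5 was high at the first and not well above background at the second. The first spans chr14:93704580-93714312, or 9733 bases, in the coordinates of the files, and the second, chr14:93706061-93706120, lies inside that span.

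The 2 Ovol1 probes disagreed in growth plate and interdigital tissue. The brightest probe read -1.82 in control interzone, -5.27 in control growth plate and -1.05 in control interdigital tissue, against -0.26, -6.03 and -1.67 in the mutant. It was 2.96-fold higher in mutant interzone, and lower by 1.69-fold in growth plate and by 1.54-fold in interdigital tissue. The growth plate arrays were the lowest of the 6. When the 2 probes were averaged the growth plate and interdigital signs turned to higher, with differences of 3.03 and 1.66.

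The second Ovol1 probe read -5.95, -6.38 and -5.08 in control interzone, growth plate and interdigital tissue and -1.37, 0.44 and -1.15 in the mutant. It was 23.8-fold, 113-fold and 15.3-fold higher, with no overlap of the genotypes. Both probes were well above background on all 6 arrays. They lie close to each other, at chr19:5444015-5444074 and chr19:5445063-5445122 in the coordinates of the files. Which of the 2 follows the Ovol1 transcript was not tested.

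Bcl11b was higher in all 3 mutant tissues. It read -4.89 in control interzone, -5.07 in control growth plate and -1.97 in control interdigital tissue, and 1.36, 1.76 and 2.26 in the mutant. The mutant was 75.6-fold higher in interzone, 113-fold in growth plate and 18.7-fold in interdigital tissue, and no control array reached a mutant one. The probe filed under the clone name 9130430L19Rik went the same way, 3.03-fold, 89.5-fold and 2.31-fold higher, with its largest value also in growth plate. The named probe is at chr12:105437087-105437146.

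Bcl11b is also known for its part in T cells. Of 8 T lymphocyte genes, 1 was at least 2-fold higher and 2 lower in mutant interzone, 1 higher and 2 lower in growth plate, and 3 higher and 1 lower in interdigital tissue. Cd3e, a subunit of the T cell receptor complex, differed 1.71-fold, 1.93-fold and 1.03-fold, and Cd4 less than 2-fold in all 3 tissues. Cd8a was 29.3-fold higher in mutant growth plate and differed less than 2-fold in the other tissues. Tcf7 was 2.77-fold higher in interzone, 3.33-fold lower in growth plate and 3.37-fold higher in interdigital tissue. Their summed signal, in units of the array's 75th percentile, was 4.03 to 6.71 on control and 3.24 to 4.70 on mutant arrays, and in each tissue the mutant sum was the lower one. It was 4.31 in mutant and 6.07 in control interzone. Bright genes weigh most in this sum. In control growth plate Cd4 read 1.56 and Tcf7 1.80, against -3.72 for Cd3e and -4.30 for Cd8a. The part of T cells in the Bcl11b differences was not tested.

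Trim29 and Ripk4, which do not belong to a family of DNA-binding transcription factors, were higher in all 3 mutant tissues. Trim29 read -1.32, -2.13 and -2.42 in control interzone, growth plate and interdigital tissue and 2.89, 3.21 and 2.72 in the mutant. That was 18.5-fold, 40.6-fold and 35.3-fold higher. The lowest mutant array lay 4.04 units above the highest control array.

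Ripk4 read -2.25 in control interzone, -5.73 in control growth plate and -5.43 in control interdigital tissue, and 1.81, 2.00 and 2.56 in the mutant. It was 16.7-fold higher in interzone, 212-fold in growth plate and 255-fold in interdigital tissue, all 6 arrays being well above background. The gap between the genotypes was 4.06 units. Among differences measured on both arrays, the 255-fold one was the largest of the 9 genes at their brightest probes. The Trim29 probe is at chr9:43270295-43270355 and the Ripk4 probe at chr16:98126110-98126169.

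Counted over the 9 genes, 7 were at least 2-fold higher in mutant interzone, 5 in growth plate and 7 in interdigital tissue, and none was at least 2-fold lower in any. No p-value stands behind these counts. Over all genes well above background on at least 1 array of a pair, 17.8% were called higher in interzone, 25.7% in growth plate and 10.6% in interdigital tissue. The shares called lower were 24.8%, 31.7% and 17.2%. Grhl1, Bcl11b, Trim29 and Ripk4 were higher in all 3 tissues.

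The median difference of the 9 genes, with bounds at their bound, was 2.72 in interzone, 4.64 in growth plate and 4.23 in interdigital tissue. Over all genes it was -0.15, -0.35 and -0.19. Among genes measured on both arrays the medians were 2.72 over 9, 2.64 over 8 and 3.13 over 7 of the genes, beside -0.11, -0.45 and -0.18 over all genes, whose SD was 1.66, 2.10 and 1.12. The growth plate value of 4.64 is that of Grhl1, with 4 genes between -0.76 and 0.64 and 4 above 5.

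The counts moved with the processing. When the probes of a gene were averaged they were 9 in interzone, 8 in growth plate, all but Klf4, and 8 in interdigital tissue, and at a 4-fold threshold 5, 5 and 6. The 9 in interzone include Trp63 at 1.04, an average that takes in readings not well above background. In growth plate, with the deposited values Klf4 at -1.41 and Ovol1 at -1.87 were at least 2-fold lower, while the median of all genes stood at -1.47 rather than -0.35. Of all called genes, 44.8% were higher in growth plate, 21.8% with the deposited values and 57.7% with the percentile taken over detected probes. In interzone that share was 41.8% and 71.9% with normexp background correction, and in interdigital tissue 38.0% and 49.8% with the deposited values.

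**Figure D3:**
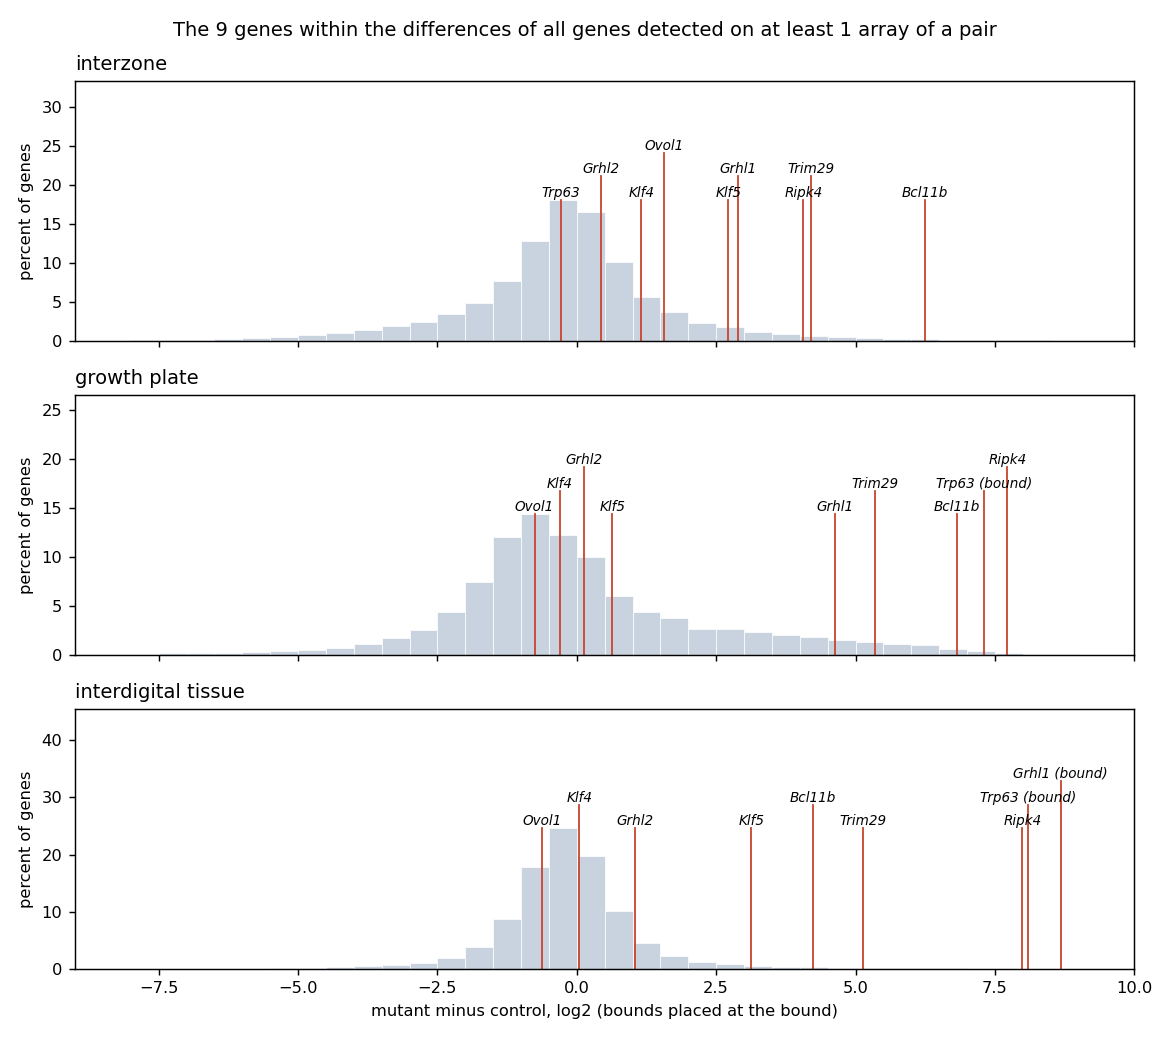
Mutant minus control differences in log2 units (horizontal axis) of all genes well above background on at least 1 array of a pair (bars, in percent of genes) and of the 9 named genes (red lines), by tissue. In interdigital tissue 3 red lines, for Ripk4, Trp63 and Grhl1, stand at or beyond 7.99, and in growth plate Ovol1, Klf4, Grhl2 and Klf5 stand within the bulk of the bars.

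Across the 6 arrays, every mutant array was above every control array for Grhl1, Klf5, Bcl11b, Trim29 and Ripk4, that is 5 of the 9 genes, and for 4.55% of all genes. The reverse order held for 0 of the 9 and for 12.4% of all genes. These orders were chosen after the values were seen. The count was 7 without the growth plate control array, when Grhl2 and Klf4 joined, 4 with the deposited values and 8 when probes were averaged.

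The highest of the 6 arrays was a mutant one for all 9 genes, 3 of them in interzone, 2 in growth plate and 4 in interdigital tissue, and for 37.2% of all genes. With the deposited values it was a mutant array for 6 of the 9. The range over the 3 mutant arrays was smaller than over the 3 control arrays for 7 of the 9 genes, Klf4 and Ovol1 being the others, and for 60% of all genes. It was smaller for 6 of the 9 with probes averaged, with the percentile over detected probes and without the growth plate control array. For Ripk4 the range was 3.47 in control and 0.75 in mutant, and for Klf5 2.66 and 0.16.

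The order of the tissues differed among the genes in controls. At the brightest probes, interzone was the highest control tissue for Trp63, Grhl1, Trim29 and Ripk4. Growth plate was the highest for Grhl2, Klf4 and Klf5, and interdigital tissue for Ovol1 and Bcl11b. The highest control tissue led the next by less than 2-fold for Trim29, by 0.81 units, Grhl2, by 0.77, Klf4, by 0.87, and Ovol1, by 0.77. Several neighbours in these orders were less than 2-fold apart: control growth plate and interdigital tissue for Ripk4, by 0.29 units, control interzone and interdigital tissue for Grhl2, by 0.02, and for Klf4, by 0.07. In the mutant, interzone and growth plate were 0.01 units apart for Grhl1 and interdigital tissue and growth plate 0.11 apart for Trp63. Without replicate arrays it cannot be said whether such steps exceed the spread between embryos. Other probes of a gene did not always give the same order. The second Klf5 probe was well above background in control interzone only, and the third Trp63 probe in control interdigital tissue only. At the third Grhl2 probe growth plate was the lowest control tissue, at -6.00. The second probes of Grhl1, Grhl2 and Ovol1 gave the same highest control tissue as the brightest.

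Structural genes of the epidermis were counted in the same way. Of 15 epidermal keratinocyte markers, 15 were at least 2-fold higher in mutant interzone, 10 in growth plate and 14 in interdigital tissue, and none was lower, with medians of 2.46, 1.46 and 5.67. The growth plate median stood at 0.35 with the deposited values. Krt14, a basal keratin, was 5.45-fold, 2.75-fold and 18.6-fold higher. Krt1, a keratin of the first layer above the basal one, was 65.2-fold, 2.69-fold and 53.7-fold higher. Krt15, another basal keratin, was 4.6-fold and 89.4-fold higher in interzone and interdigital tissue and 1.81-fold in growth plate, and Sfn was 2.19-fold and 2.35-fold higher, with a difference of -0.0067 units in growth plate.

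The summed signal of these 15 markers, in units of the array's 75th percentile, was 25.1 in control interzone, 114 in control growth plate and 11.5 in control interdigital tissue. It was 227, 243 and 199 in the mutant. Control arrays thus held signal of these markers in all 3 tissues, most in growth plate. In control interdigital tissue the sum came mostly from Sfn, at a level of 2.76, with Krt14 next at 0.19. Dsc3, a desmosomal cadherin, was not well above background on any control array, nor was Cdh1, the cadherin of epithelial junctions, in control growth plate and interdigital tissue. All 15 markers were well above background on all 3 mutant arrays. The part of captured epidermal cells in the differences of the 9 genes was not tested.

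**Figure D4:**
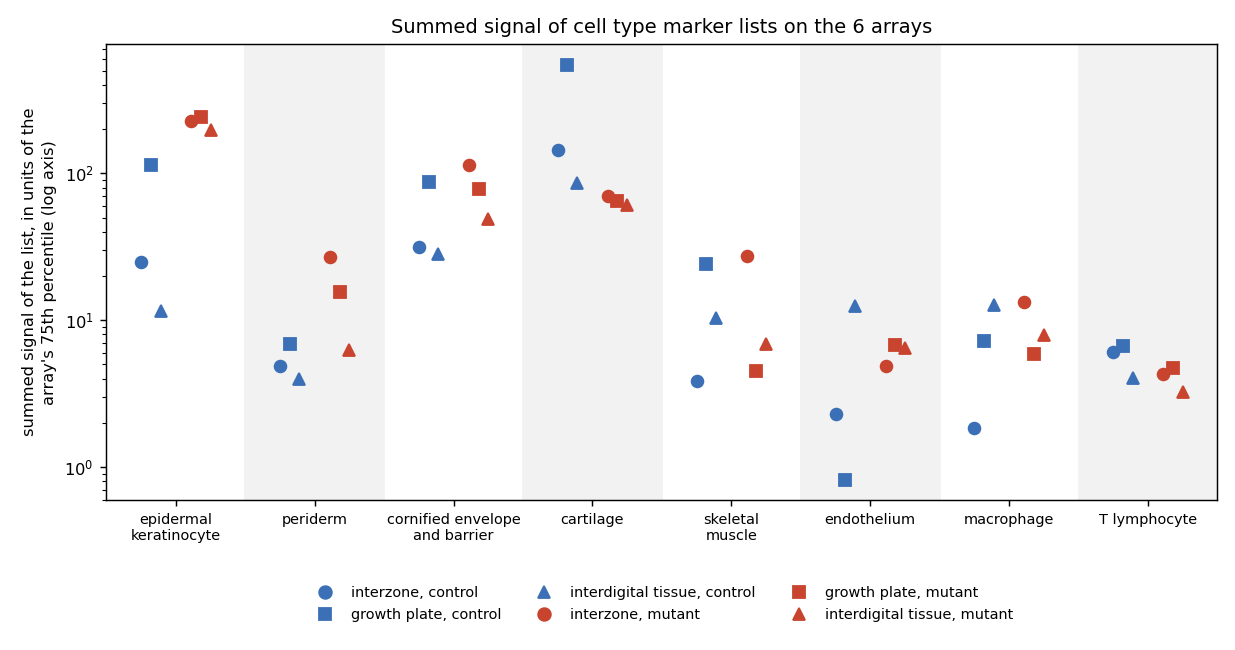
Summed signal of marker lists on the 6 arrays, in units of the 75th percentile of the array (vertical log axis), by list (horizontal axis), with controls in blue and mutants in red. Keratinocyte marker signal was 199 to 243 on mutant and 11.5 to 114 on control arrays, whereas the T lymphocyte lists overlap and cartilage signal was highest, at 550.2, in control growth plate.

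Markers of other cells moved in different ways. Of 8 cartilage genes, 6, 8 and 2 were lower in mutant interzone, growth plate and interdigital tissue and none was higher. Acan, which encodes the main cartilage proteoglycan, was lower by 4.19-fold in interzone and by 14.1-fold in growth plate, and differed 1.04-fold in interdigital tissue. The summed cartilage signal was 86.5 to 550.2 on control and 61.4 to 70.4 on mutant arrays. Of 8 macrophage genes, 7 were higher in mutant interzone, while 2 were higher and 2 lower in growth plate and 2 lower in interdigital tissue. Their summed signal was 1.86 to 12.7 on control and 5.86 to 13.3 on mutant arrays. Among 8 markers of skeletal muscle, mutant interzone had 6 higher and 1 lower, with 5 lower in growth plate and 1 higher and 2 lower in interdigital tissue, with summed signals of 3.84 to 24.1 and 4.53 to 27.4. Endothelial genes were higher in 4, 6 and 0 of 8 and lower in 0, 0 and 4, with summed signals of 0.82 to 12.4 and 4.91 to 6.76. Their part in the results was not tested either.

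Periderm is the transient outer layer of embryonic epidermis. Of 7 periderm markers, 5 were higher and 1 lower in mutant interzone, 4 higher in growth plate and 2 higher in interdigital tissue. Krt6a was 25.0-fold, 2.86-fold and 21.4-fold higher, whereas Krt17 differed less than 2-fold in all 3. Of 7 Schwann cell and melanocyte genes measured in interzone and in growth plate, 2 were higher and 2 lower in the first and 3 higher and 4 lower in the second, and of 8 in interdigital tissue 2 were higher. Their summed signal was 4.89 to 15.5 on control and 9.93 to 13.5 on mutant arrays.

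Genes that p63 is known to regulate were more often higher than lower. Of 18, 10 were higher and 2 lower in mutant interzone, 10 higher and 3 lower in growth plate, and 13 higher and none lower in interdigital tissue, with medians between 1.15 and 2.88. The growth plate median of 1.16 was 0.044 with the deposited values. Perp, a desmosomal p63 target, was 15.4-fold and 48.2-fold higher in interzone and interdigital tissue and 1.32-fold in growth plate. Fgfr2, a growth factor receptor gene, went the other way in 2 tissues, by 2.04-fold in interzone and by 2.05-fold in growth plate. This list shares genes with the keratinocyte one, so the 2 counts are not independent.

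Genes that grainyhead factors are known to regulate include junction and protease genes. Of 8 such genes, 8 were higher in mutant interzone, 5 were higher and 1 lower in growth plate, and 7 were higher in interdigital tissue, with medians of 5.55, 2.98 and 3.04. The growth plate median was 1.87 with the deposited values. Cldn4, a tight junction claudin, was 19.0-fold, 3.50-fold and 17.4-fold higher. Rab25, an epithelial trafficking GTPase, was 64.7-fold and 9.02-fold higher in interzone and interdigital tissue and 1.36-fold in growth plate. St14, a membrane serine protease gene, was 51.1-fold and 6.56-fold higher in these 2 tissues and 10.9-fold lower in growth plate.

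Late differentiation genes differed gene by gene. Of 13 cornified envelope and barrier genes, 9 were higher in mutant interzone, 8 in growth plate and 8 in interdigital tissue, with 2 lower in the last. Ppl, the plakin periplakin, was 116-fold, 2.15-fold and 14.0-fold higher. Hrnr, a filaggrin-like protein gene, was 223-fold and 201-fold higher in interzone and interdigital tissue and 1.53-fold lower in growth plate. Sprr2a1 and Klk7 differed less than 2-fold in all 3 tissues.

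Other epithelial transcription factors went both ways in each tissue. Of 20 measured in interzone, 11 were higher and 2 lower, and of 21 in the other tissues, 7 were higher and 4 lower in growth plate and 12 higher and 1 lower in interdigital tissue. The growth plate median of 0.26 turned to -0.81 with the deposited values. Tfap2a, a factor of surface ectoderm, was 2.03-fold, 1.70-fold and 2.60-fold higher. Ehf, an epithelial ETS factor, differed less than 2-fold in all 3.

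Family relatives of the 9 regulators were counted too, among them Ovol2, which is also in the list of epithelial factors. Of 15 measured relatives, 3 were higher and 2 lower in mutant interzone. Of 16 in the other tissues, 3 were higher and 3 lower in growth plate and 4 higher and 3 lower in interdigital tissue. Trp53, the p53 relative of Trp63, differed 1.37-fold, 1.27-fold and 1.34-fold, and Klf2, an endothelial relative of Klf4, differed 1.29-fold, 1.31-fold and 1.44-fold. Ubp1 and Klf6 were lower in mutant growth plate, by 3.03-fold and 2.41-fold, and differed less than 2-fold in the other tissues. Of 10 mesenchymal and epithelial-mesenchymal transition factors, 2 were higher and 3 lower in interzone, 2 higher and 2 lower in growth plate and none in interdigital tissue. Zeb1, a repressor of Cdh1, differed less than 2-fold in all 3. Other repressors of that gene, named after their values were seen, went both ways: Zeb2 was 2.22-fold higher in interzone and 32.8-fold higher in growth plate, and Snai1 was lower by 5.79-fold and 86.6-fold.

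**Figure D5:**
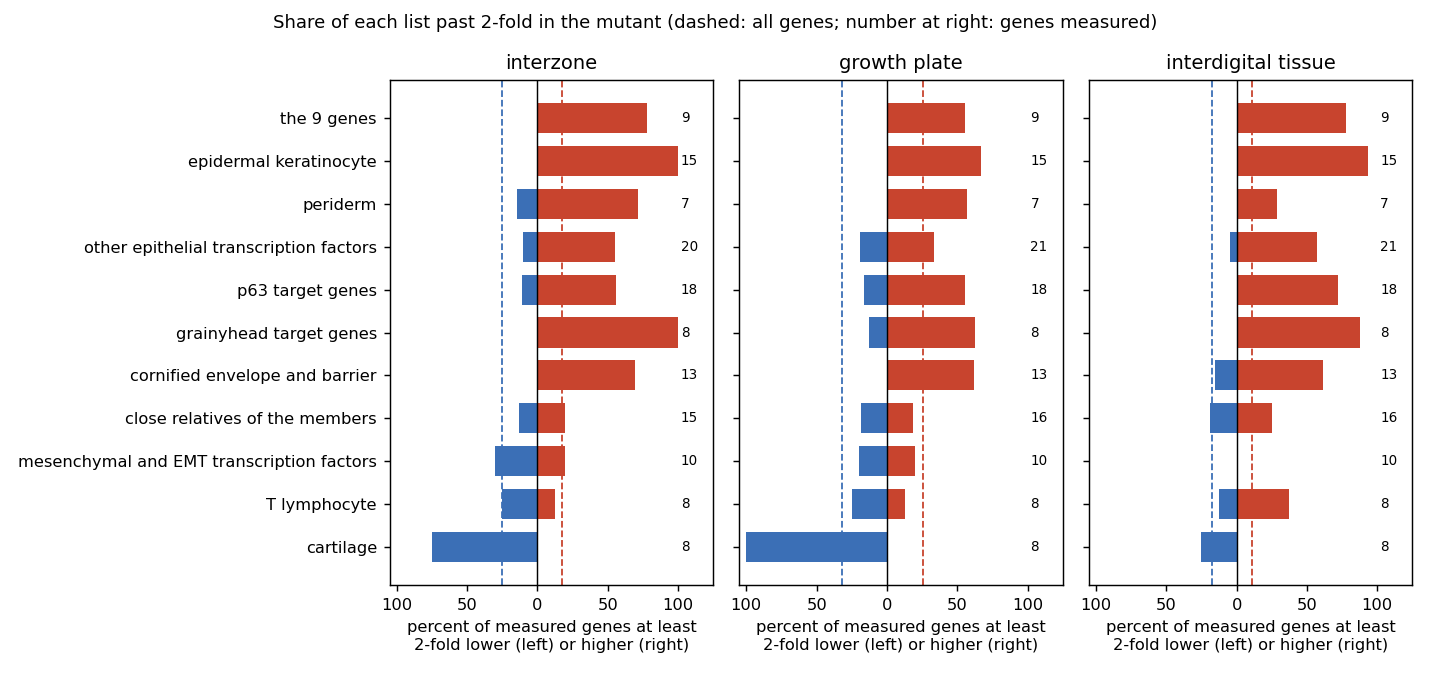
Share of the measured genes of each list drawn (rows) at least 2-fold higher (red, to the right) or lower (blue, to the left) in the mutant, by tissue, with dashed lines at the shares over all genes and the number of genes measured at the right. The macrophage, skeletal muscle, endothelium and Schwann cell and melanocyte lists are not drawn. In interzone, growth plate and interdigital tissue, macrophage genes higher were 7, 2 and 0 of 8. Muscle genes higher were 6, 0 and 1 of 8, and endothelial genes 4, 6 and 0 of 8. The 9 regulators reached 7, 5 and 7 of 9 and the keratinocyte markers 15, 10 and 14 of 15, and the family relatives 3 of 15, 3 of 16 and 4 of 16.

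The genes with the pattern most like that of Trp63 were found by the root mean square difference of levels centred on each gene's mean. Levels were floored at the lowest level well above background, over the 6 arrays and 18008 genes. The pattern is that of each gene's brightest probe. For Trp63 this probe read -0.48 in control interzone, where its other probes, at -6.96 and -7.08, were not well above background. The nearest 8 were Ces2g at 0.66 log2 units, Adgrg1 at 0.72, Slc15a2 at 0.94, Eppk1 at 1.03, Alox12 at 1.05, Capns2 at 1.1, Lratd1 at 1.12 and Sp8 at 1.13. Eppk1 encodes the plakin epiplakin and Alox12 a lipoxygenase, both known from epidermis, and Sp8 is a zinc-finger factor of limb ectoderm. Of the other regulators, Ripk4 ranked 11 with a distance of 1.37, Grhl1 ranked 19 with 1.60 and Trim29 ranked 53 with 1.89. The other 5 were far from it, with Bcl11b at rank 1244, Klf5 at 1568, Grhl2 at 3947, Klf4 at 6614 and Ovol1 at 15291.

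The 8 genes nearest to Klf4 were Igkv4-72, Sap30l, Zdhhc9, Alox5, 1700042G07Rik, Slc37a2, Coro1b and Psma7, at 0.11 to 0.14 units. Klf4 varied little, so many genes lay close to it. The nearest of the other regulators, Grhl2, ranked 2411 with a distance of 0.50. These distances use the 6 arrays once each and describe likeness of pattern only.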

How the data were processed

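The authors deposited 1 scanner file per array and 1 value table. Per the file headers, Agilent Feature Extraction 9.5.1.1 wrote the files, and the processed intensity is background-subtracted. The deposited table is a ratio of that intensity to the array's median, as found by setting the columns against the scanner values. Per the labels' protocols, captured RNA became cDNA and PCR product by a company's unpublished method, and 250 ng of product were labelled. Amplification can change the ratio between transcripts, and that was not tested.

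Here control spots and outlier spots were left out, and spots of a probe were averaged. Log2 intensity was set against each array's 75th percentile. Probes were named through a RefSeq table of GRCm38.p6 (names only) by accession (23082), symbol (6582) or older symbol (3073), and 8437 had no match. A gene was called at a fold or bound of at least 2, with the brighter array well above background. Every one of the genes was named with every probe, and list genes were named from the 4 brightest of a list. Dsc3, Cdh1, Ptprc, Lck, Zeb2 and Snai1 were named after their values were seen. The 14 lists had 156 entries, all on the array. The genes, lists and 8 alternatives were chosen with earlier results of these data known. With 1 array per group the number of arrays limits the precision. Python 3.11.15 with pandas 2.3.3 was used, and R 4.3.3 with limma 3.58.1 gave the normexp alternative with an offset of 50. The counting was tested on simulated data.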

Additional observations from a re-analysis of the deposited data

Results flagged for a closer look

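For 3 genes the mutant minus control difference went one way in 1 tissue and the other way in another, at the brightest probe and with 1 array per group, and these differences between tissues were not tested. Trp63 stood at -0.29 log2 units in interzone, at a bound of 7.31 in growth plate and at a bound of 8.09 in interdigital tissue. Klf4 stood at 1.16 in interzone, -0.30 in growth plate and 0.048 in interdigital tissue. Ovol1 stood at 1.57 in interzone, -0.76 in growth plate and -0.62 in interdigital tissue. Each of the negative values was less than 2-fold, and their signs depended on the probe or the scaling. Trp63 in interzone stood at 1.04 with its probes averaged, and Klf4 in growth plate at 0.37 with quantile normalization. The second Ovol1 probe was 113-fold higher in mutant growth plate and 15.3-fold higher in mutant interdigital tissue.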

How the results depend on the processing

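Of the 19 member differences past 2-fold, 19 kept their sign and 18 stayed past 2-fold under the 6 alternatives that give values per gene; Klf4 in interzone fell to 0.90 with normexp correction. In growth plate the count of genes higher moved from 5 to 8 when a gene's probes were averaged, and the count lower from 0 to 1 with quantile normalization and to 2 with the deposited value table. The count of genes with every mutant array above every control array, chosen after seeing the data, moved from 5 to 8 with probes averaged. The genes higher numbered 5 to 9 in interzone and 6 to 8 in interdigital tissue, the lower figures at the 4-fold threshold. At that threshold 58.7% of all called genes in growth plate were higher. In interdigital tissue the share was 49.5% with quantile normalization. Signal limits Trp63, Grhl1 and the second Klf5 probe to bounds in control tissues, and 1 array per group leaves no estimate of error.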
